A study of Mus musculus with 9 samples.

Results

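Cyclin-dependent kinase (CDK) inhibitor genes were examined for H3K27me3, the trimethyl mark on lysine 27 of histone H3, in mouse bone marrow progenitors. The members were the 7 genes Cdkn2a, Cdkn2b, Cdkn2c, Cdkn2d, Cdkn1a, Cdkn1b and Cdkn1c, taken by name, out of 21887 protein-coding genes of the mm10 annotation. For each gene the span and a window of the span with 20 kb on either side were set against the H3K27me3 intervals of 8 libraries. Of the 7 windows, 6 held an interval in at least 1 library and could be tested.

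The cells were lineage-negative, c-Kit-positive bone marrow cells, a fraction that holds hematopoietic stem and progenitor cells, taken uncultured from transplanted female mice. RH MET and RH VEH cells carried the allele Dnmt3a fl-R878H/+ and came from a cross with Mx1-cre mice, and WT MET and WT VEH cells were Dnmt3a+/+ from a cross with the same Mx1-cre line, all on C57BL/6. Dnmt3a encodes a de novo DNA methyltransferase, and the R878H allele is switched on by Cre, which the interferon-responsive Mx1 promoter drives in blood cells and other tissues. MET mice were given metformin, a biguanide that inhibits mitochondrial complex I, and VEH mice its vehicle, for 1 month. Each of the 4 groups had 2 libraries. Not given in the sources used here are the age of the mice, the share of donor cells in the fraction, and whether libraries of a group came from separate animals. The series title names the competitive advantage of R878H cells and its reduction by metformin as the question.

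CDK inhibitors hold the cell cycle before DNA replication. The INK4 proteins p16 (from Cdkn2a), p15 (Cdkn2b), p18 (Cdkn2c) and p19Ink4d (Cdkn2d) bind CDK4 and CDK6 and block their pairing with D cyclins, while the CIP/KIP proteins p21 (Cdkn1a), p27 (Cdkn1b) and p57 (Cdkn1c) bind cyclin and CDK complexes more broadly. Cdkn2a also encodes, from a start farther upstream and in another reading frame, the Arf protein, which stabilises p53. Polycomb repressive complex 2 places H3K27me3, and the Cdkn2a and Cdkn2b locus is a classic target whose silencing by Polycomb proteins such as Bmi1 is known to be needed for the self-renewal of hematopoietic stem cells.

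The RefSeq promoter table of GRCm38.p6, the assembly of mm10, held 9 annotated starts of these genes. It held none for Cdkn1c, whose promoter was therefore left out. The starts of Cdkn2a, Cdkn2b and Cdkn1a lay at or beside intervals, and those of Cdkn2c, Cdkn2d and Cdkn1b did not. A promoter window here ran from 250 bases before to 50 bases after a start and counted as marked where an interval overlapped it. The 250 bases before the start are shown for marked starts of 3 genes and for Cdkn1b, which had no interval. They read 5′ to 3′ on the coding strand of each gene with every CG dinucleotide, the target of DNA methyltransferases, in capitals.

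Cdkn2a, p16 start, chr4:89282193-89282442, minus strand: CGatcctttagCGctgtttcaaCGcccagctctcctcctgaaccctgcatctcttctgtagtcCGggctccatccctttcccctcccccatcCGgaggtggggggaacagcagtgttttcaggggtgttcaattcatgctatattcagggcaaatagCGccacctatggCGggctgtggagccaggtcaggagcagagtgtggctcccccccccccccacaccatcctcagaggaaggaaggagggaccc
Cdkn2a, Arf start, chr4:89294620-89294869, minus strand: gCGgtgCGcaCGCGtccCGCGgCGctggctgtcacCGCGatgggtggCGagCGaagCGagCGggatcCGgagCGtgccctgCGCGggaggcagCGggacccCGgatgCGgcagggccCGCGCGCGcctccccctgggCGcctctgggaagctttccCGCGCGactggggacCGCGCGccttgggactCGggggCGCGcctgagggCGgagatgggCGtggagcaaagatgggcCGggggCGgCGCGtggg
Cdkn2b, chr4:89311033-89311282, minus strand: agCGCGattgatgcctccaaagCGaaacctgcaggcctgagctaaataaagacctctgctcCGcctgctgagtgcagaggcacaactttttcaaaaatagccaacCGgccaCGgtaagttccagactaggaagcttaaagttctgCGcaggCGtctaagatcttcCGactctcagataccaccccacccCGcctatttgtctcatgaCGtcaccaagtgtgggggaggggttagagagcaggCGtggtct
Cdkn1a, downstream start, chr17:29093519-29093768, plus strand: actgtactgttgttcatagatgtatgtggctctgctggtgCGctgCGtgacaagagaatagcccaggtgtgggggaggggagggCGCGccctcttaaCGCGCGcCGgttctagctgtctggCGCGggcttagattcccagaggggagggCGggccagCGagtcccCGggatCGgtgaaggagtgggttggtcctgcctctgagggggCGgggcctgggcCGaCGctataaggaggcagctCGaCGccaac
Cdkn1b, chr6:134920151-134920400, plus strand: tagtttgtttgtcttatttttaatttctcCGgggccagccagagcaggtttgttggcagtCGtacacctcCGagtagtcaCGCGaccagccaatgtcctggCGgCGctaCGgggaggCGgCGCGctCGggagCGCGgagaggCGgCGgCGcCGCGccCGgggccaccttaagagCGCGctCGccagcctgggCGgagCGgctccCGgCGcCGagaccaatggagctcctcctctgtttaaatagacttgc

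The marked and unmarked promoters did not separate by their number of CG dinucleotides, counted on 1 strand over the 300 bases of the window. The Arf promoter held 45, a number that 1.93% of all 32851 promoters reached, and the p16 promoter held 12. Both were marked in 8 of 8 libraries, as was that of Cdkn2b with 18. At Cdkn1a the downstream promoter held 23 and was marked in 8 libraries, whereas the upstream one held 2 and was marked in 5. The unmarked promoters held 8 and 33 CG dinucleotides at the 2 starts of Cdkn2c, 22 at Cdkn2d and 30 at Cdkn1b. Over all promoters, 94.6% held at least 1 CG, 16.6% were marked in all 8 libraries and 69.5% in none. Among the 8701 promoters with 20 or more, 26.7% were marked in all libraries and 61.6% in none.

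The libraries differed in how much of the genome they called. They held 11620 to 16879 intervals, covering 80.0 to 155 Mb in RH libraries and 142 to 186 Mb in WT libraries, and RH VEH 1 stood lowest at 80.0 Mb. The number of reads behind them is unknown, so an absent interval means only that none was called. Of all protein-coding genes, 2.70% were covered over their whole span in every library and 40.9% had no interval in their window in any. The intervals carry no base calls, so the Dnmt3a allele itself was not checked. Among marker genes of the cell fraction, the progenitor genes Ptprc, Runx1 and Lmo2 had no interval in their spans, Spi1 had one in 1 library and Cd34 in 6, but Gata2, over 89.1% to 100% of its span, and Tal1, over 52.0% to 92.5%, were marked in all 8. Of other cell types, 2 of 4 B cell genes, 3 of 4 T cell genes, 0 of 3 erythroid genes, 0 of 3 mature myeloid genes and 2 of 4 stromal and endothelial genes were marked in every library, and 2, 1, 2, 3 and 2 of them in none. Of all protein-coding genes, 24.8% had an interval in their span in every library and 60.7% in none. Kit, the gene used to enrich the cells, had an interval in its span in 1 of 4 RH and 4 of 4 WT libraries. Its window cover was 0.411 ± 0.821% in RH and 6.00 ± 1.06% in WT (SD, n = 4 each, exact permutation p = 0.0286, adjusted p = 0.570). All RH libraries lay below all WT libraries in window cover at 4.8% of the 12937 genes tested, so such a separation is not particular to Kit. Among the 7 progenitor genes with a testable window, Kit was the only 1 at that unadjusted p. The part of Kit in the genotype values of the inhibitors was not tested. The mark shows which genes carried a silencing mark in at least part of the cells, not which cells were present.

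Cdkn2a and Cdkn2b lay together inside 1 broad H3K27me3 domain on chromosome 4 in every library. Cdkn2a (chr4:89274473-89294619) and Cdkn2b (chr4:89306289-89311032), both on the minus strand and 11.7 kb apart, were covered over 100% of their spans in 8 of 8 libraries. Of 10000 protein-coding genes with a span at least as long as that of Cdkn2a, 11 (0.11%) were fully covered in every library. Most of these genes are longer than Cdkn2a, so this is not the share among genes of like length. Cdkn2b, with a span of 4.74 kb, is not among them. Both Cdkn2a starts and the Cdkn2b start were inside the domain each time.

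The domain was a single interval of 46.0 and 49.4 kb in RH MET 1 and 2, 42.2 and 51.0 kb in RH VEH 1 and 2, 52.4 and 46.6 kb in WT MET 1 and 2, and 51.4 and 48.0 kb in WT VEH 1 and 2. The groups overlapped in length, and the mean over all libraries was 48.4 ± 3.39 kb (SD, n = 8). Its edge at lower coordinates, downstream of Cdkn2a, lay 2.47 to 10.1 kb outside the gene and varied by 7.6 kb. A break of 0.8 kb in RH MET 1 and RH VEH 1 and of 1.4 kb in WT MET 2 set off a short piece at that end, and in the other libraries the next interval was 4.2 to 7.8 kb away. The edge at higher coordinates, upstream of Cdkn2b, was tighter, with a spread of 3 kb, and beyond it no interval followed for 30.6 to 42.0 kb. Measured from the Cdkn2b start, this edge lay at 3.77 and 2.77 kb in RH MET 1 and 2, 3.17 and 4.57 kb in RH VEH 1 and 2, 5.77 and 5.17 kb in WT MET 1 and 2, and 4.97 and 4.77 kb in WT VEH 1 and 2. Every RH library stopped closer to Cdkn2b than every WT library, but the farthest RH edge and the nearest WT edge were 0.2 kb apart, 1 step of the grid of positions.

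**Figure D1:**
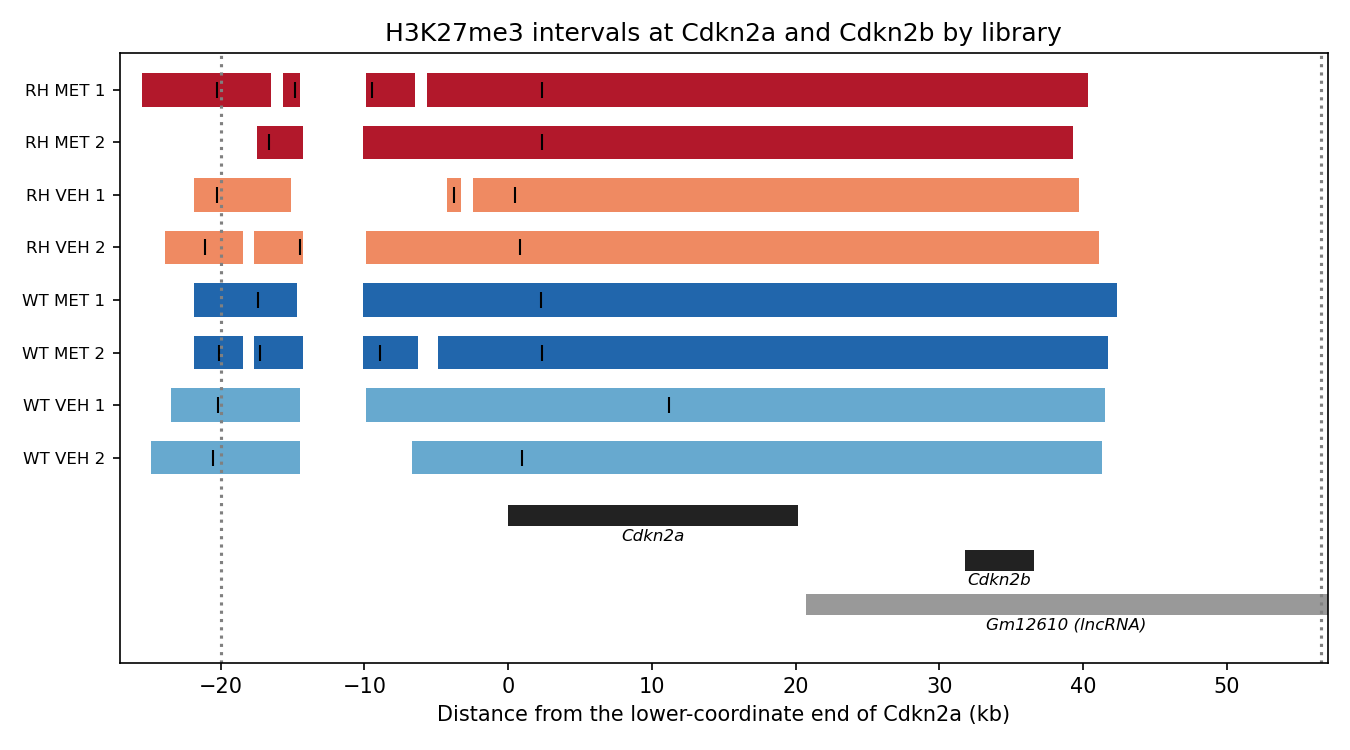
Intervals at Cdkn2a and Cdkn2b in each library (rows, RH above WT), against distance in kb from the lower-coordinate end of Cdkn2a. Black ticks are summits, grey dotted lines bound the windows, dark bars are the 2 genes and the grey bar is the lncRNA gene Gm12610. One interval holds both genes in all 8 libraries, its right edge varies by 3 kb and its left edge by 7.6 kb.

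The highest point of the domain lay within the span of Cdkn2a rather than at Cdkn2b in every library. The summit height, the authors' own whole-number value with no stated unit, was 72 and 72 in RH MET 1 and 2, 36 and 61 in RH VEH 1 and 2, 74 and 81 in WT MET 1 and 2, and 56 and 69 in WT VEH 1 and 2. RH VEH 1 was lowest in height, in domain length and in covered genome. Ranked within its own library, the summit stood between the 93.6th and 96.6th percentile of all summits. In 7 of 8 libraries the summit lay within 3 kb of the downstream end of Cdkn2a, 5.33 to 7.22 kb downstream of the p16 start. In WT VEH 1 it lay 3.47 kb upstream of the p16 start, between that start and the Arf start. The distance from the Cdkn2b start was 25.4 to 36.1 kb. The neighbouring intervals on either side were low, with heights of 7 to 17 below and 9 to 17 above the domain. Of the locus neighbours, the metabolic gene Mtap had no interval in any library and the transcription factor gene Dmrta1 was covered over 60.9% to 94.4% of its span. The lncRNA gene Gm12610, which begins between Cdkn2a and Cdkn2b and runs past the domain, was covered over 19.3% to 34.8%.

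Cdkn2c, on the same chromosome at chr4:109660876-109666756, had an interval next to it rather than over it. The interval was 7.0 and 3.6 kb long in RH MET 1 and 2, 5.60 and 7.80 kb in RH VEH 1 and 2, and 3.40 and 3.80 kb in WT MET 1 and 2. It was absent from WT VEH 1 and 2.80 kb long in WT VEH 2. Its summits lay 3.21 to 3.69 kb beyond the downstream end of Cdkn2c, 7.71 to 8.19 kb from the nearer Cdkn2c start, and 0.019 to 0.403 kb from the start of 9630013D21Rik, an lncRNA gene on the same strand. That start was inside the interval in all 7 libraries that had one. The interval reached into the Cdkn2c span in RH MET 1 alone, over 19.1% of it. Summit heights were 58 and 20 in RH MET 1 and 2, 29 and 36 in RH VEH 1 and 2, 23 and 25 in WT MET 1 and 2, and 18 in WT VEH 2. The RH and WT heights overlapped.

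Cdkn2d (chr9:21288459-21291421) had no interval over its span or its start. The end of its window, 20 kb upstream, touched an interval at the start of Ap1m2, an adaptor protein gene, over 0.0489% of the window in RH MET 1 and 0.514% in RH VEH 2. The region merged over the libraries there, chr9:21311201-21313600, was covered over 1.6 and 0 kb in RH MET 1 and 2 and over 1.2 and 2.4 kb in RH VEH 1 and 2, against 0 kb in each WT library. The RH and WT libraries overlapped at 0 because RH MET 2 had none, and the exact permutation p was 0.143 (adjusted p = 1 over 18556 regions). The other protein-coding genes near Cdkn2d, Atg4d and Kri1, shared its window. The gene itself had no interval in any group.

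Cdkn1a, which encodes the p53 target p21, carried a short and high interval over its downstream start (chr17:29093769) in 8 of 8 libraries. The interval was 6.80 and 5.40 kb long in RH MET 1 and 2, 4.2 and 5.4 kb in RH VEH 1 and 2, 3.40 and 8.20 kb in WT MET 1 and 2, and 9.60 and 5.20 kb in WT VEH 1 and 2. It covered 34.9% to 84.4% of the gene (chr17:29090979-29100722). Its summits lay within 0.408 to 0.968 kb of that start, a scatter of 0.56 kb against one of 10.7 kb in the longer domain at Cdkn2a. The scatter at Cdkn2a came largely from WT VEH 1, with its summit 11.2 kb from the downstream end of that gene. In the other libraries this distance was 0.504 to 2.39 kb. The upstream start of Cdkn1a, at its first base, was inside the Cdkn1a interval in 4 libraries, RH MET 1, RH MET 2, WT MET 2 and WT VEH 1. Summit heights were 61 and 53 in RH MET 1 and 2, 36 and 45 in RH VEH 1 and 2, 63 and 77 in WT MET 1 and 2, and 47 and 64 in WT VEH 1 and 2. RH VEH 1 was again lowest, and the within-library percentiles ran from 89.3 to 93.6. A separate stretch, with 4.40 to 13.4 kb under intervals, lay 5.38 to 8.78 kb before the gene in every library. The highest summit in it was 13 to 31. In RH VEH 1 alone this stretch was split into 2 intervals, of 2.80 and 1.60 kb with heights of 11 and 13. It reached into Trp53cor1, the lincRNA-p21 gene, whose span was covered over 16.9% to 62.1% by these and further intervals.

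Cdkn1b, the p27 gene at chr6:134920401-134925525, had no interval in its window in any of the 8 libraries, a pattern shared with 40.9% of protein-coding genes. It could not enter the tests. Its promoter, printed above, was among the 11.7% of promoters with at least as many CG dinucleotides, 59.6% of which were unmarked in all libraries.

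Cdkn1c, the maternally expressed imprinted gene of p57, was the only member outside the Cdkn2a and Cdkn2b locus that lay wholly inside a domain. Its span (chr7:143458339-143461059) was covered over 100% in 8 of 8 libraries. The domain was 16.8 and 14.6 kb long in RH MET 1 and 2, 12.2 and 24.6 kb in RH VEH 1 and 2, 20.2 and 18.8 kb in WT MET 1 and 2, and 57.6 and 18.2 kb in WT VEH 1 and 2. WT VEH 1 alone joined it with the neighbouring interval into 1 piece, while the other 7 libraries called 2 or more intervals in the window. In those 7 the break below the domain was 0.8 to 6.8 kb. Domain heights were 75 and 61 in RH MET 1 and 2, 31 and 66 in RH VEH 1 and 2, 77 and 85 in WT MET 1 and 2, and 63 and 79 in WT VEH 1 and 2. Of its imprinted neighbours, Phlda2, a growth-restricting placental gene, was covered over 100% in all 8 libraries. Slc22a18, a transporter gene, ranged from 2.87% in RH VEH 1 to 57.8% in WT VEH 1. Kcnq1, which hosts the antisense RNA of the imprinted domain, was covered over 2.97% to 17.2% and Osbpl5 over 7.62% to 17.3%, and Nap1l4 had no interval in its span. The lncRNA gene Gm33663 beside Cdkn1c was covered fully.

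**Figure D2:**
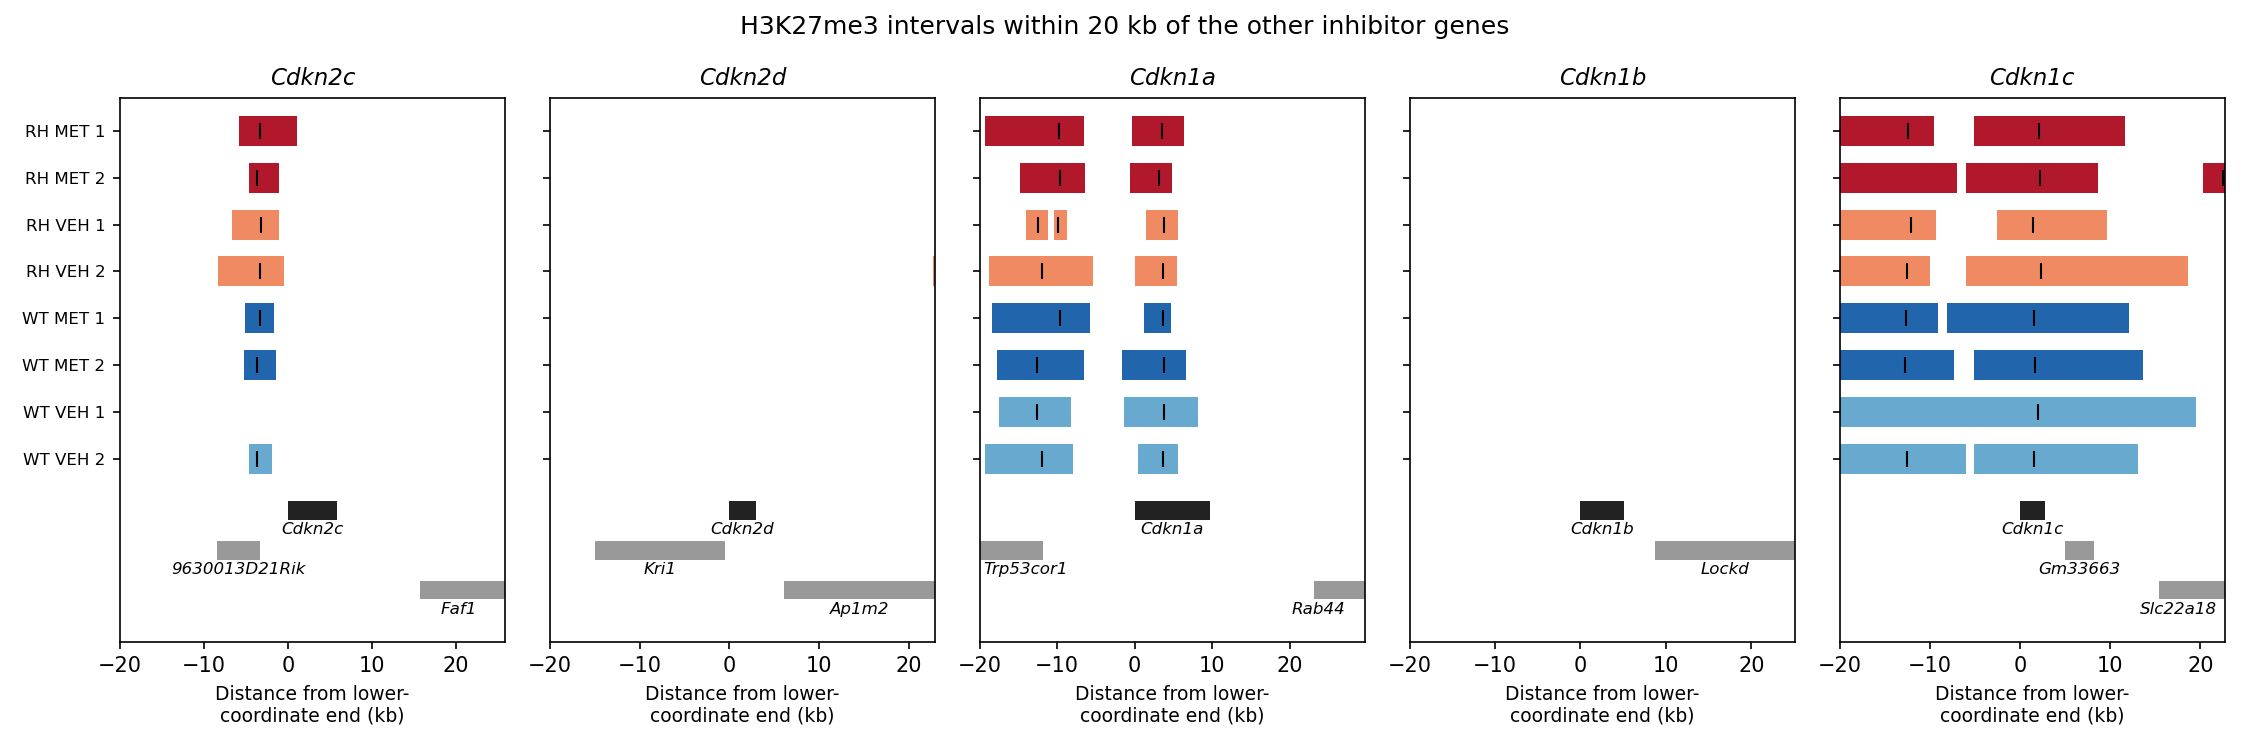
Intervals within 20 kb of Cdkn2c, Cdkn2d, Cdkn1a, Cdkn1b and Cdkn1c in each library (rows, RH above WT), against distance in kb from the lower-coordinate end of each gene. Black ticks are summits, dark bars are the members and grey bars their nearest neighbours. Cdkn1c and part of Cdkn1a lie under intervals in all 8 libraries, the Cdkn2c interval lies beside the gene in 7, and Cdkn1b has none.

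The percent of each window under intervals put these patterns on 1 scale. Cdkn2a was covered over 89.7% and 87.5% of its window in RH MET 1 and 2, 80.0% and 91.4% in RH VEH 1 and 2, 92.4% and 89.4% in WT MET 1 and 2, and 92.4% and 87.0% in WT VEH 1 and 2. Cdkn2b was covered over 63.7% and 61.5% in RH MET 1 and 2, 62.4% and 65.5% in RH VEH 1 and 2, 68.2% and 66.9% in WT MET 1 and 2, and 66.4% and 65.96% in WT VEH 1 and 2. The 2 windows share 28.3 kb, so these are not independent values. Cdkn1c was covered over 63.8% and 70.5% in RH MET 1 and 2, 53.5% and 81.1% in RH VEH 1 and 2, 72.7% and 73.6% in WT MET 1 and 2, and 92.4% and 75.5% in WT VEH 1 and 2. Cdkn1a was covered over 39.4% and 27.7% in RH MET 1 and 2, 17.3% and 37.8% in RH VEH 1 and 2, 32.2% and 39.0% in WT MET 1 and 2, and 38.2% and 33.4% in WT VEH 1 and 2. Cdkn2c was covered over 15.3% and 7.85% in RH MET 1 and 2, 12.2% and 17.0% in RH VEH 1 and 2, 7.41% and 8.28% in WT MET 1 and 2, and 0% and 6.10% in WT VEH 1 and 2.

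Within a library the order of the members was nearly fixed. Cdkn2a stood above Cdkn1c in 7 of 8 libraries and above Cdkn2b in 8, and Cdkn1c stood above Cdkn2b in 7. Both genes of the locus stood above Cdkn1a in 8 libraries, and Cdkn1a above Cdkn2c in 8. The locus averaged 76.9% and the 5 other inhibitors 23.1%, a difference of 53.8 ± 1.90 percentage points (SD, n = 8 libraries). That mean joins unlike genes, since Cdkn1c averaged 72.9 ± 11.5% and Cdkn1b 0%. Among all 12937 genes tested, the median window was covered over 11.6%, and Cdkn2a stood at the 97.5th to 99.1st percentile of its library, Cdkn1c at the 94.0th to 98.8th, Cdkn2b at the 92.1st to 97.4th, Cdkn1a at the 74.7th to 86.6th and Cdkn2c at the 9.82nd to 65.3rd. No test was made of this contrast, because the members share a locus or a family. The difference was 68.2 points over the gene spans alone and 34.5 points with flanks of 50 kb.

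**Figure D3:**
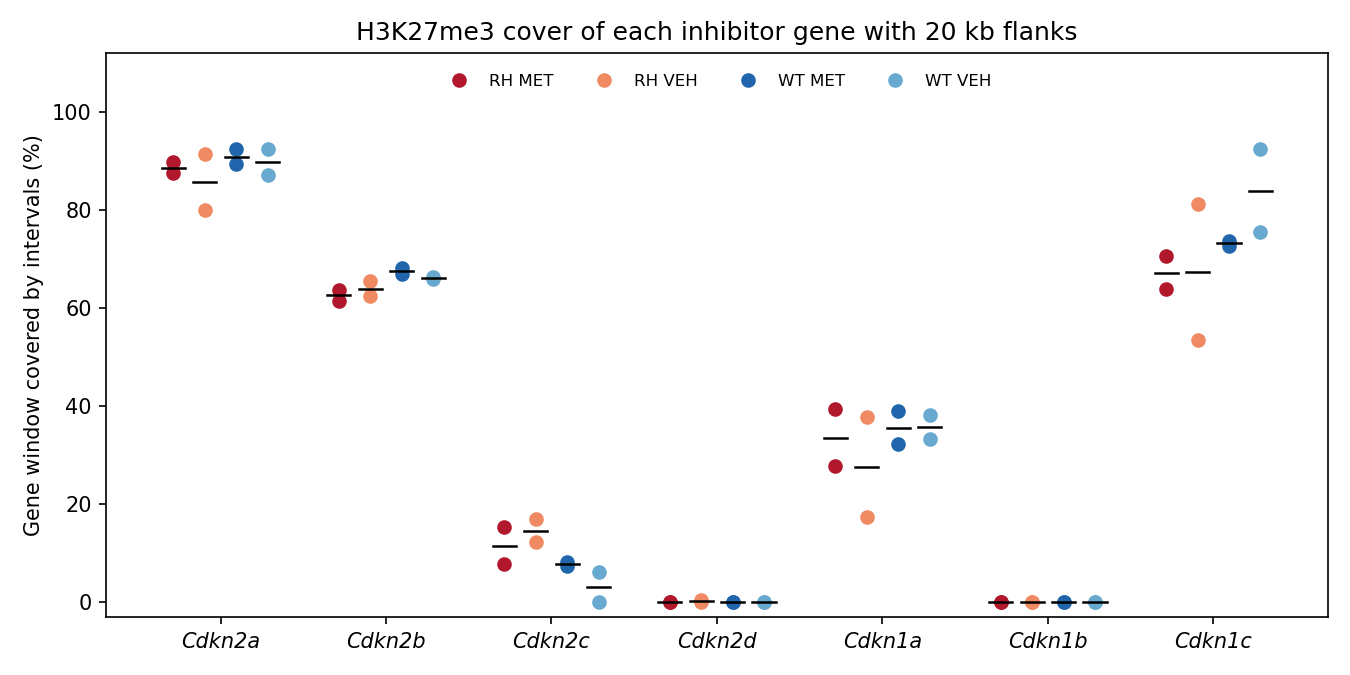
Percent of each gene window (span with 20 kb flanks) covered by intervals, for each member and group. Points are libraries (2 for each group), bars are group means, and groups run RH MET, RH VEH, WT MET, WT VEH. Cdkn2a, Cdkn2b and Cdkn1c lie above 50% in every library and Cdkn1b at 0.

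Genotype was compared with 4 RH against 4 WT libraries by an exact two-sided permutation test of window cover, for which 0.0286 is the smallest p, with Benjamini-Hochberg adjustment over 12937 genes. No gene passed at an adjusted p of 0.05, and 649 were under an unadjusted 0.05, a number that was 379 without RH VEH 1, 427 without WT MET 2 and 906 without RH VEH 2. Of the 6 members tested, 1 had all RH libraries on one side of all WT libraries. This was Cdkn2b, covered over 63.3 ± 1.75% in RH and 66.9 ± 0.966% in WT (SD, n = 4 each), a difference of -3.58 points with an exact permutation p of 0.0286 and an adjusted p of 0.570. In the same comparison 4.8% of all genes had RH below WT in this way and 0.216% had RH above, so that 1 member in 6 is no result about the family. The lower part of the Cdkn2b window lay inside the domain in 8 of 8 libraries, so the value is that of the upper edge alone, which lay 3.57 ± 0.783 kb past the gene in RH and 5.17 ± 0.432 kb in WT. RH libraries covered less of the genome, 122 ± 31.3 Mb, than WT libraries, 155 ± 20.7 Mb (SD, n = 4 each). When cover was ranked within each library, the Cdkn2b difference changed sign to +1.29 percentile points (p = 0.314, exact permutation), and it was -9.26 points with 5 kb flanks and -0.838 points with 50 kb flanks (p = 0.0286 and 0.971, exact permutation).

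Cdkn2c went the other way from Cdkn2b and from most of the genes whose RH and WT libraries separated. Its window was covered over 13.1 ± 4.01% in RH and 5.45 ± 3.74% in WT (SD, n = 4 each), a difference of 7.63 points with an exact permutation p of 0.0571 and an adjusted p of 0.629, so it did not pass. RH MET 2, at 7.85%, fell between the WT MET values of 7.41% and 8.28%. With ranks within each library the difference was 28.6 percentile points (exact permutation p = 0.0286, adjusted p = 0.629), and 2.88% of genes were higher in RH at this unadjusted p and 1.42% lower. The region beside the gene, measured whole, was covered over 6.00 ± 1.84 kb in RH and 2.50 ± 1.72 kb in WT (SD, n = 4 each; exact permutation p = 0.0571, adjusted p = 1). These are values of the interval at 9630013D21Rik, not of the Cdkn2c promoter.

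**Figure D4:**
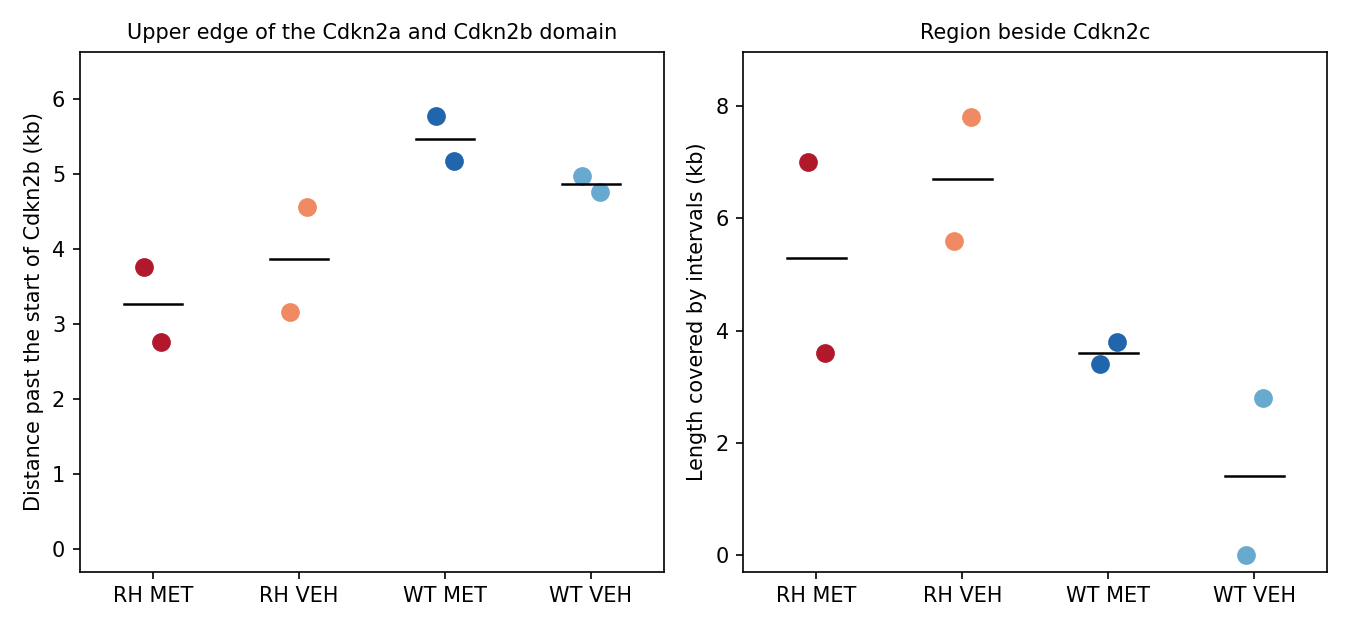
Left, distance in kb from the Cdkn2b start to the upper edge of the Cdkn2a and Cdkn2b domain. Right, length in kb covered in the region beside Cdkn2c. Points are libraries and bars group means, 2 libraries a group. The 4 RH edges lie between 2.77 and 4.57 kb and the 4 WT edges between 4.77 and 5.77 kb, and the lengths beside Cdkn2c overlap between RH MET and WT MET.

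The RH and WT values of the other members overlapped. Cdkn2a was covered over 87.1 ± 5.0% in RH and 90.3 ± 2.58% in WT (difference -3.14 points, or -0.774 without RH VEH 1, exact permutation p = 0.314, adjusted p = 0.812). Cdkn1a was covered over 30.6 ± 10.2% in RH and 35.7 ± 3.42% in WT (difference -5.13 points, or -0.704 without RH VEH 1, exact permutation p = 0.486, adjusted p = 0.872). Cdkn1c was covered over 67.2 ± 11.6% in RH and 78.6 ± 9.28% in WT (difference -11.3 points, exact permutation p = 0.2, adjusted p = 0.722). The whole Cdkn1c region, chr7:143413601-143477800, was covered over 37.8 ± 8.62 kb in RH and 49.2 ± 11 kb in WT, and the whole domain at the Cdkn2a locus over 48.3 ± 3.45 kb in RH and 50.6 ± 1.89 kb in WT (SD, n = 4 each). Both regions overlapped between the genotypes (exact permutation p = 0.171 and 0.371, adjusted p = 1 for both). Of the 18556 regions, 0.0916% were longer in RH and 2.84% shorter at an unadjusted p of 0.05, and none of the members' regions was among them.

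Metformin was compared in the same way with 4 MET against 4 VEH libraries. No gene passed after adjustment over 12937 genes, with 174 under an unadjusted p of 0.05 (293 without RH MET 1), and of the 6 members tested 0 had all MET libraries on one side of all VEH libraries. Over all genes, 1.3% had MET above VEH in this way and 0.0464% MET below. Cdkn2a was covered over 89.7 ± 2.02% in MET and 87.7 ± 5.61% in VEH, and Cdkn2b over 65.1 ± 3.03% in MET and 65.1 ± 1.82% in VEH (SD, n = 4 each). Cdkn2c was covered over 9.70 ± 3.72% in MET and 8.83 ± 7.38% in VEH, Cdkn1a over 34.6 ± 5.64% in MET and 31.7 ± 9.83% in VEH, and Cdkn1c over 70.2 ± 4.44% in MET and 75.6 ± 16.3% in VEH (SD, n = 4 each). The smallest exact permutation p among the members was 0.543, at Cdkn1c, and every adjusted p was 1. At an unadjusted p of 0.05, 0.862% of regions were longer in MET and 0.0862% shorter, and none of them was at a member. The spread of Cdkn2a, Cdkn2c, Cdkn2d, Cdkn1a and Cdkn1c was larger among VEH than among MET libraries, and that of Cdkn2b was smaller. The VEH libraries include RH VEH 1, the lowest in covered genome, and WT VEH 1, with its single Cdkn1c interval of 57.6 kb. Differences in spread were not tested.

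The 4 comparisons of 2 libraries with 2 were not tested, since an exact permutation of 4 libraries cannot go below 0.333, and their values are descriptions. No member had an interval in its window in both libraries of one group and neither of the other, in any of the 4. The background for RH VEH against WT VEH was 0.335% of genes called in RH VEH alone and 2.02% in WT VEH alone, and for RH MET against WT MET it was 0.616% and 1.72%. For RH MET against RH VEH it was 2.82% called in RH MET alone and 0.223% in RH VEH alone, and for WT MET against WT VEH 1.95% and 0.224%. The window cover of Cdkn2b differed by -2.23 points for RH VEH minus WT VEH and by -4.92 points for RH MET minus WT MET, with both RH libraries below both WT libraries each time, as they were for 21.5% and 34.6% of genes. Cdkn2c was higher in RH VEH than in WT VEH without overlap, at 14.6 ± 3.39% and 3.05 ± 4.32% (SD, n = 2 each), as were 2.67% of genes, while RH MET and WT MET overlapped at 11.6 ± 5.24% and 7.85 ± 0.616%. WT MET lay above WT VEH at Cdkn2b and Cdkn2c, as at 21.5% of genes, and below it at Cdkn1c, as at 7.44%. RH MET lay below WT MET at Cdkn1c, as at 34.6% of genes, and above it at no member, against 4.73% of genes. RH MET and RH VEH overlapped at every member, against 15% of genes with RH MET above RH VEH and 3.62% with RH MET below.

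Among the partners of the inhibitors, Ccnd1 and Ccnd2 carried the mark in every library and the 3 Rb family genes in none. Of 29 cyclin, CDK, Rb, E2F and p53 pathway genes, 4 were called over their spans in all 8 libraries, 4 in some and 21 in none, against 24.8% and 60.7% of all protein-coding genes called in all and in none. D cyclins are the partners that INK4 proteins displace from CDK4 and CDK6. Of their genes, Ccnd1 and Ccnd2 were covered over 22.5% to 58.9% and 15.5% to 19.2% of their spans, while Ccnd3 had no interval in its span in any library. Ccna1, a germ-cell cyclin A, was covered over 38.1% to 84.1%, and Trp73, a p53 relative, over 65.1% to 97.8%. Cdk4 was called in 6 libraries, E2f5 and E2f7 in 7 and E2f6 in 6. Cdk6, Rb1, Rbl1, Rbl2, Trp53 and Mdm2 had no interval in their spans. None of the 18 with a testable window passed after adjustment for genotype or metformin. At an unadjusted p of 0.0286 stood Trp73 for genotype and Ccne1 for metformin, 1 gene of 18 each, beside the 4.8% of all genes lower in RH and the 1.3% higher in MET, and Ccne1 is named after its values were seen. Trp73 window cover was 51.5 ± 3.91% in RH and 71.8 ± 8.92% in WT (SD, n = 4 each; adjusted p = 0.570, exact permutation). Ccne1, the cyclin E that the CIP/KIP proteins restrain with CDK2, had no interval in its span in any library. Its window cover, all of it in the flanks, was 27.9 ± 4.09% in MET and 16.8 ± 7.49% in VEH (SD, n = 4 each; adjusted p = 1, exact permutation).

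Other genes resembled single members in cover. By the mean absolute difference in window cover over the 8 libraries, the genes nearest to Cdkn2a were Hapln2 (1.18 points), Asic4 (1.85) and Pou3f1 (2.04), and those nearest to Cdkn2b were Tlcd3b (1.92), Slc8a2 (2.25) and Aplp1 (2.27). Nearest to Cdkn1a were Snapc1 (2.52), Ank1 (2.72) and Nkiras2 (2.86), and nearest to Cdkn1c were Foxc2 (3.95), Igfn1 (4.62) and Trim67 (4.67). Zfp955a (1.79), Tmem184a (2.40) and Slc43a2 (2.63) were nearest to Cdkn2c, and the nearly empty windows of Dld, Maob and Klhl28 to Cdkn2d. The measure compares amounts of cover and uses neither position within the window nor function.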

How the data were processed

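Chromatin immunoprecipitation sequencing of H3K27me3 gave 8 libraries, 2 for each combination of genotype and treatment, beside 1 input library whose reads were not analysed here. Per the file headers, the authors deposited for each library a list of intervals and a list of their summits, and for the series a list of merged regions, all on mm10, so that intervals were called per library. The summit height is a score, a whole number that the authors deposited without a unit, and heights may not be comparable between libraries. The interval and summit positions, per the file headers, are base pair positions. Per the submitters' processing notes, bcl2fastq 2.20, BWA 0.7.12 and mm10 were used, without stated roles. Not given in the sources used here are the interval caller, its limit, any depth adjustment and how the input was used. Edges fall on multiples of 200 bp and intervals closer than 800 bp do not occur, so edges are known to no better than that. Read depth is unknown, so no counting interval can be given.

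Gene spans and starts came from RefSeq tables of GRCm38.p6. Window cover is the percent of base pairs of the span with 20 kb flanks under intervals. Differences of 4 libraries against 4 were tested by exact permutation over 70 assignments, with Benjamini-Hochberg adjustment over all 12937 protein-coding genes with an interval in their window in at least 1 library, or over 18556 regions merged over the libraries, all identical to the deposited ones. limma 3.58.1 in R 4.3.3 was an alternative, and other steps used Python 3.11.15 with NumPy 2.4.6 and pandas 2.3.3. The cover and permutation code was tested on simulated data. Libraries are called replicates in the labels without mention of separate animals, so p-values measure only how far these libraries vary, which may be technical variation.

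The members, the pathway and marker lists and the tests were chosen with earlier results of these data known. The rule for named genes took all members, pathway list genes with an interval in their span in at least 4 libraries, protein-coding genes in the windows, and the 3 genes closest in cover to each member. The lncRNA genes, the promoter counts, the marker genes named and list genes named for an absent interval were chosen after their values were seen.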

Additional observations from a re-analysis of the deposited data

Results flagged for a closer look

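In 5 sets of 4 libraries, 1 library stood apart from the other 3 by a gap that was large against the range of the set. The cutoff has a nominal chance rate of about 1 in 20 sets, which does not hold for sets made mostly of 0. The flags were not adjusted for the number of sets screened. Cdkn2c window cover was 15.3% in RH MET 1, the highest of the MET libraries, and that library was also the only one whose interval reached into the gene. Cdkn1c window cover was 92.4% in WT VEH 1, the highest of the WT libraries, where 1 interval of 57.6 kb took the place of several. Cdkn2d stood apart in 3 sets through the interval that touches the end of its window, with 0.514% in RH VEH 2 among both the RH and the VEH libraries and 0.0489% in RH MET 1 among the MET libraries. In the VEH and MET sets all remaining values were 0, so any single value above 0 would have been flagged.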

How the results depend on the processing

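No gene passed an adjusted p of 0.05 for genotype or metformin in any alternative, limma included, which had 1201 genes for genotype and 543 for metformin at an unadjusted p under 0.05. Of the 200 recomputed differences of single members, 163 had the sign of the reported value and 15 the opposite one, while 5 came to 0 and 17 had no sign to keep, because the MET minus VEH difference at Cdkn2b was 0 as reported. Under ranks within each library the RH minus WT difference became 0.443 at Cdkn2a, 1.29 at Cdkn2b and 0.321 at Cdkn1a, and the MET minus VEH difference became -0.222 at Cdkn2a. The MET minus VEH difference became -4.51 for the Cdkn1a span alone, -0.760 at Cdkn1a and 4.84 at Cdkn1c with 5 kb flanks, and 0.340 at Cdkn2d with 50 kb flanks. Leaving out 1 library at a time gave RH minus WT differences of -8.07 to -0.704 at Cdkn1a, -15.9 to -6.71 at Cdkn1c, -4.55 to -0.774 at Cdkn2a, -4.32 to -2.98 at Cdkn2b, 5.81 to 9.37 at Cdkn2c and 0.0163 to 0.188 at Cdkn2d. The smallest differences at Cdkn1a and Cdkn2a came without RH VEH 1, and at Cdkn1c the unadjusted p was 0.0286 without RH VEH 2 (adjusted p = 0.407, exact permutation). Leaving out 1 library also gave MET minus VEH differences of -1.88 to 5.19 at Cdkn1a, -12.8 to 0.113 at Cdkn1c, -0.532 to 3.58 at Cdkn2a, -2.07 to 3.60 at Cdkn2c and -0.159 to 0.0122 at Cdkn2d. The -12.8 points at Cdkn1c came without RH VEH 1, with an unadjusted exact permutation p of 0.0286 that did not pass after adjustment. In that setting 253 of 12927 genes were under an unadjusted 0.05. The sign turned without RH VEH 1 at Cdkn1a and Cdkn2a, without WT VEH 1 at Cdkn1c, without RH VEH 2 at Cdkn2d, and without RH MET 1, WT VEH 1 or WT VEH 2 at Cdkn2c. The cause of these reversals was not tested.

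The difference between the Cdkn2a and Cdkn2b locus and the other inhibitors was 68.2 points over spans alone, 67.1 with 5 kb flanks, 34.5 with 50 kb flanks and 51.7 with summit heights of at least 15. It ranged from 53.2 to 54.2 when 1 library was left out and was 53.7 without RH VEH 1 and WT MET 2, an alternative chosen after seeing the data, as was the 5 kb flank for calls. The count of members called in one group and not the other was 0, and ranged from 0 to 2 when 1 library was left out. It was 1 without RH MET 2 and without RH VEH 1, both times Cdkn2d, and 2 without WT VEH 2, both of them Cdkn2c. In these settings the group that lost a library held only 1, so the calls set 1 library against 2. The Cdkn2d calls rest on 0.0489% of the window in RH MET 1 and 0.514% in RH VEH 2. The share of all genes called in this way was not computed.

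Replicate numbers showed no pairing common to the groups. Correlations between groups of the differences between replicates 1 and 2 were -0.0414 to 0.310 over genes, highest for RH VEH with WT MET. Whether libraries of the same number shared a batch was not tested. With the replicate block no gene passed, the smallest p being 0.0556, and the Cdkn2b difference of -3.58 had p = 0.0556 by exact permutation within numbers. Read depth is unknown and limits what an absent interval can show.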
